A study of Sus scrofa with 80 samples.

Results

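HORMAD1, ZPBP, PHF7, LDHC, CRISP2, SPA17, ADAM2 and PRM1 are genes of meiosis and of the developing sperm, and their transcripts were followed through the endocrine tissues of young pigs. They are 8 of 6765 genes that the array annotation names with a single symbol, and they were read from 9 of 23999 probesets, since CRISP2 has 2. The genes were chosen from their measured values in these same arrays, high in some testes and low in most other tissues, so that their levels in testes are given as a description without a test. Breed and sex outside the gonads, the differences among the other tissues and the level in the ovary were tested. Low levels outside the testes were part of the choice, so these tests are not independent of it.

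Spermatogenesis proceeds from spermatogonia, which divide by mitosis, through spermatocytes, which pass meiosis, to haploid spermatids, which condense their nucleus and build the acrosome and the tail. In the growing male these stages appear one after another, and transcripts of late stages are absent from testes in which no germ cell has advanced that far. HORMAD1 is a protein of the meiotic chromosome axis, PHF7 a histone reader of male germ cells and LDHC the lactate dehydrogenase isozyme of germ cells. ZPBP acts in the acrosome and CRISP2 is found in acrosome and tail. SPA17 is a protein of the fibrous sheath of the sperm tail that is also found in motile cilia, ADAM2 is a subunit of the sperm surface protein fertilin, and PRM1 is protamine 1, which replaces histones in the condensing spermatid nucleus.

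The study sampled 16 pigs, 4 of each of 4 breeds (LW for Large White, DU for Duroc, YL for Youli, IB for Iberian), and hybridised 1 Affymetrix array per pig for each of 5 tissues: hypothalamus, adenohypophysis, thyroid gland, gonad and backfat. Large White, Duroc and Iberian pigs were 2 males and 2 females each and Youli pigs 3 males and 1 female, which gave 9 testes and 7 ovaries. The labels name no treatment, the pigs were kept together on 1 regime of feeding, and they had a mean age at slaughter of 87 days in Large White, 83 in Duroc, 80 in Youli and 89 in Iberian pigs. Animals carry the name of their breed, their sex and a number, as in YLM19, a Youli male. Because only 2 or 3 testes represent a breed, and because the Youli are a crossbred line with a heterogeneous background, the number of animals limits the precision of every comparison of breeds.

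Values are the deposited log2 expression values, on which 1 unit is a doubling. Medians over probesets lay between 4.67 and 5.04 in the 80 arrays. A dim probeset reads about 2 to 3 on this scale and a gene was counted as above background in an array at a value over 5. EIF1AY, a Y-linked translation factor, was between 8.74 and 10.61 in the 45 arrays titled as male and between 2.64 and 3.23 in the 35 titled as female. The titles were used throughout, since the breed and sex fields of 11 thyroid arrays conflicted with them. Arrays of 2 animals stood apart. The backfat array of YLM19 held transcripts of these germ cell genes and of striated muscle, and is shown separately. The ovary array of IBF25 had 1 of 10 measured oocyte genes above a value of 5, against 8 or 9 in the other ovaries, and results that rest on it are given with and without it. Whether these arrays hold only the tissue of their label was not tested, so their values are those of arrays labelled as backfat and ovary.

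Across the 9 testes the 8 genes were not switched on together. HORMAD1, the meiotic gene, was above the highest non-gonadal array in 9 of 9 testes. ZPBP, PHF7 and LDHC were above it in 6, CRISP2 and ADAM2 in 5, SPA17 in 4 and PRM1, the spermatid gene, in 3. By this level, which was chosen after seeing the data, the order was nested. In each of the 28 pairs of genes, the testes with the rarer transcript were also among those with the more frequent one. With a fixed level of 5 in place of the highest non-gonadal array, 25 of 28 pairs were nested. The exceptions were PHF7 paired with LDHC, CRISP2 and SPA17. At the level of 5 there were fewer steps. HORMAD1 and ZPBP were above it in 6 testes, PHF7, LDHC, CRISP2 and SPA17 in 5, and ADAM2 and PRM1 in 3.

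**Figure D1:**
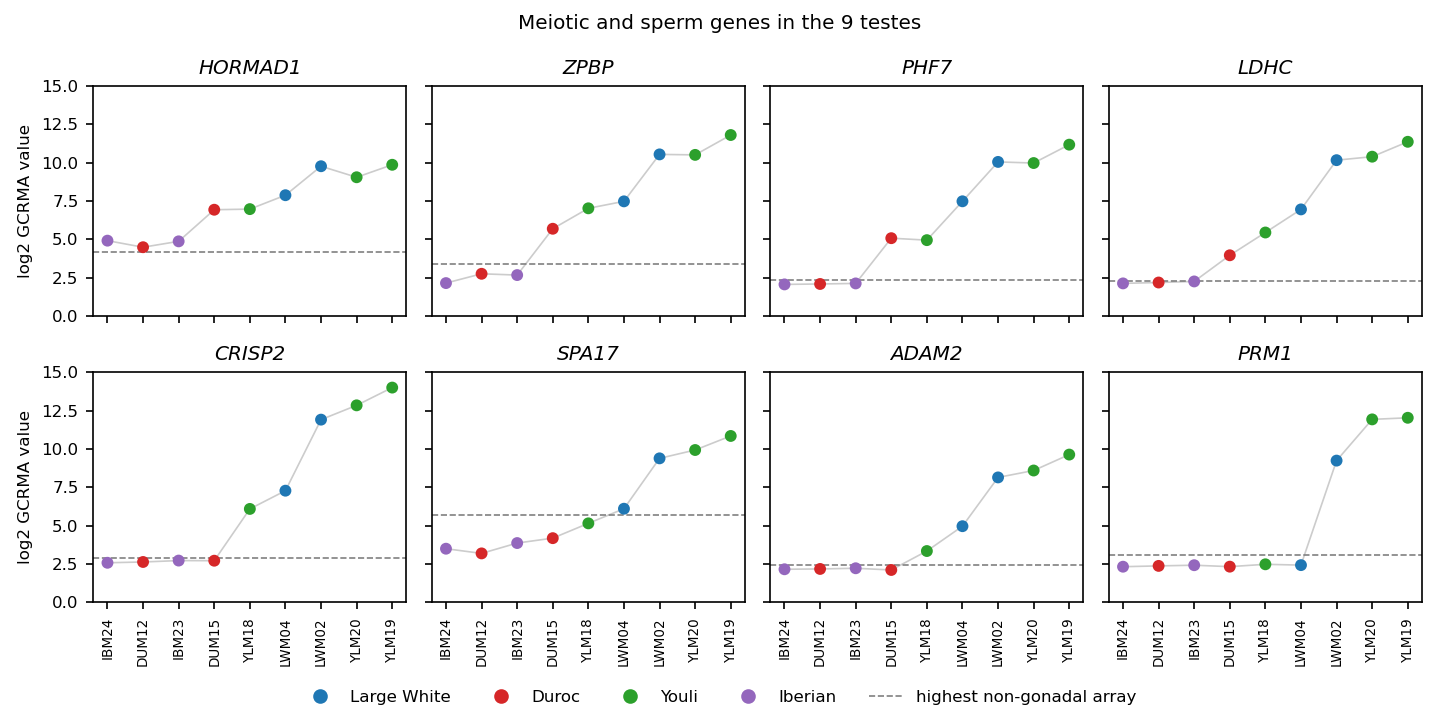
Log2 value of each gene in each of the 9 testes, ordered by the mean of the 8 genes and coloured by breed. Grey lines only join the points, and the dashed line is the highest non-gonadal array other than the backfat of YLM19; HORMAD1 lies above it in all 9 testes and PRM1 in 3.

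HORMAD1 was 4.50 in DUM12, 6.94 in DUM15, 4.88 in IBM23, 4.92 in IBM24, 9.77 in LWM02, 7.88 in LWM04, 6.98 in YLM18, 9.87 in YLM19 and 9.05 in YLM20. Its lowest testis was thus only slightly above its highest non-gonadal array, the backfat of IBF25 at 4.21, so that the count of 9 rests on a narrow margin for DUM12 and both Iberian boars. At a level of 5, HORMAD1 was above background in 6 testes.

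ZPBP, the acrosomal protein, was 2.77 in DUM12, 5.70 in DUM15, 2.68 in IBM23, 2.16 in IBM24, 10.54 in LWM02, 7.48 in LWM04, 7.03 in YLM18, 11.81 in YLM19 and 10.51 in YLM20. PHF7 was 2.10 in DUM12, 5.09 in DUM15, 2.14 in IBM23, 2.07 in IBM24, 10.05 in LWM02, 7.49 in LWM04, 4.96 in YLM18, 11.18 in YLM19 and 9.98 in YLM20. LDHC was 2.20 in DUM12, 3.97 in DUM15, 2.27 in IBM23, 2.14 in IBM24, 10.17 in LWM02, 6.96 in LWM04, 5.46 in YLM18, 11.36 in YLM19 and 10.40 in YLM20. All of these were at background in DUM12 and in both Iberian testes, and DUM15 lay between these testes and the highest ones for each of them. YLM18 was above DUM15 for ZPBP and LDHC and slightly below it for PHF7.

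CRISP2 had the widest range, from 2.59 in IBM24 to 14 in YLM19. Its values were 2.64 in DUM12, 2.72 in DUM15, 2.73 in IBM23, 11.91 in LWM02, 7.28 in LWM04, 6.10 in YLM18 and 12.84 in YLM20. All Duroc and Iberian testes were therefore at background for this gene, including DUM15. The other CRISP2 probeset was much dimmer: it was between 1.90 and 1.99 in 6 testes, 3.50 in LWM02, 5.25 in YLM19 and 4.75 in YLM20, so it showed only the 3 testes in which the brighter probeset was highest.

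SPA17, of the tail sheath, was 3.20 in DUM12, 4.19 in DUM15, 3.87 in IBM23, 3.50 in IBM24, 9.39 in LWM02, 6.11 in LWM04, 5.16 in YLM18, 10.85 in YLM19 and 9.93 in YLM20. ADAM2 was 2.18 in DUM12, 2.12 in DUM15, 2.23 in IBM23, 2.16 in IBM24, 8.15 in LWM02, 4.97 in LWM04, 3.35 in YLM18, 9.64 in YLM19 and 8.60 in YLM20. Both genes repeated the order of CRISP2 over its 5 highest testes. The highest non-gonadal array was 5.70 for SPA17, against 2.41 for ADAM2 and 2.90 for CRISP2, so that YLM18 counted as above it for ADAM2 and CRISP2 but not for SPA17.

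PRM1 was 9.24 in LWM02, 12.03 in YLM19 and 11.93 in YLM20. In the other 6 testes it lay between 2.33 and 2.49, with 2.43 in LWM04 and 2.49 in YLM18. LWM04 and YLM18, which had CRISP2, LDHC and ZPBP, thus had no PRM1 above background. The lowest of LWM02, YLM19 and YLM20 exceeded the highest of the other testes by 6.76 for PRM1, by 4.63 for CRISP2 and by 1.17 for HORMAD1, the remaining genes lying between 2.49 for PHF7 and 3.28 for SPA17. In all 9 probesets YLM19 was the highest testis and these 3 were the highest. A testis with fewer advanced germ cells and one with less RNA per germ cell cannot be told apart in whole tissue.

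Per testis, DUM12, IBM23 and IBM24 had 1 of the 8 genes above the highest non-gonadal array, DUM15 had 4, YLM18 had 6, LWM04 had 7, and LWM02, YLM19 and YLM20 had 8. Pearson's r between pairs of the genes across the 9 testes ranged from 0.822 to 0.995 with a median of 0.959 over 28 pairs. These coefficients share the same few testes with high values and are a description.

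By breed, the values in the 9 testes are given as a description, since the genes were chosen from these values and the study had named PRM1 and SPA17 for this contrast in these same samples. Both Iberian testes and that of DUM12 were below 5 for every gene. The boars differed widely within Large White and Youli, and within Duroc for some of the genes only. The Large White pair was 9.24 and 2.43 for PRM1 and 11.91 and 7.28 for CRISP2. The Youli boars were between 6.10 and 14 for CRISP2. The Duroc pair was 2.77 and 5.70 for ZPBP, but 2.64 and 2.72 for CRISP2 and 2.38 and 2.33 for PRM1.

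Other germ cell genes followed the same testes only in part. Of the listed genes of spermatogonia, meiosis, and spermatids and sperm that are no members, 21 were measured. In YLM19, 12 of these exceeded their highest non-gonadal array, and 9 exceeded it in no testis. For 7 of them the testes above it were exactly LWM02, YLM19 and YLM20, as for PRM1. How many of all probesets did so was not counted. PGK2, the phosphoglycerate kinase of late germ cells, was 7.57, 9.39 and 8.45 in LWM02, YLM19 and YLM20 and at most 2.10 in the others. The acrosin binding protein ACRBP was graded like CRISP2 and SPA17, at 3.0 in DUM12, 5.17 in YLM18, 5.84 in LWM04 and 10.98 in YLM19. The ubiquitin hydrolase UCHL1, which neurons also make, was between 7.28 and 9.77 in testes and up to 13.30 in a non-gonadal array. DDX4, a helicase of early germ cells, was above 5 only in LWM02, at 5.42. Among the testes HSPA2 lay between 8.66 and 11.65, TRIP13 between 6.17 and 7.15 and CREM between 7.51 and 11.05. AKAP3 lay between 4.18 and 5.34, highest in IBM23, and ID4 between 2.79 and 4.16. HSPA2 exceeded its highest non-gonadal array in LWM02, YLM19 and YLM20 only, and TRIP13 in 7 testes. CREM, AKAP3 and ID4 did so in no testis.

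The listed genes were tested between testes and ovaries with breed in the model. Of the 21, 3 were higher in testes and 1 lower, beside 15.0% of all probesets higher and 13.2% lower. The count of 3 is near the share over all probesets and says little about these genes. It was 3 without the animal IBF25 as well. TAF4B, a transcription factor subunit of germ cells, was higher by 1.21 (limma, adjusted p = 0.00777, SE 0.29). The meiotic crossover gene CCNB1IP1 was higher by 0.61 (limma, adjusted p = 9.0e-04, SE 0.11) and the sperm calcium channel subunit CATSPER2 by 0.84 (limma, adjusted p = 0.0431, SE 0.28). UCHL1 was lower in testes, at -1.39 (limma, adjusted p = 0.0157, SE 0.38). PGK2 and ACRBP did not pass, with differences of 1.68 (SE 1.16) and 1.80 (SE 0.94). The median difference over the 21 genes was 0.38, against 0.02 over all probesets. For the members themselves, the untested difference of means between 9 testes and 7 ovaries was largest for ZPBP, at 4.60, and smallest for SPA17, at 0.56. Without the ovary array of IBF25 it was 4.61 for ZPBP and 1.09 for SPA17, still the smallest of the 8 genes.

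**Figure D2:**
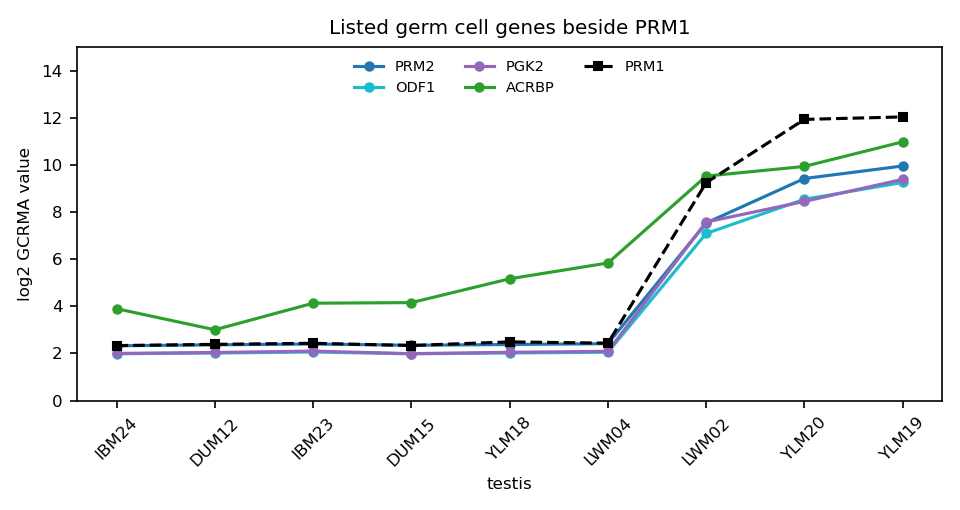
Log2 values of PRM1 and of the listed germ cell genes PRM2, ODF1, PGK2 and ACRBP in the 9 testes, in the order of the plot of the 8 genes by testis. PRM2, ODF1 and PGK2 leave background in LWM02, YLM19 and YLM20, and ACRBP is graded, from 3.0 in DUM12 to 10.98 in YLM19. PRM2 and ODF1 were named for their correlation with PRM1 in these testes, so their likeness to it was fixed by the choice. Not drawn are the 9 of 21 listed genes that exceeded their highest non-gonadal array in no testis.

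The genes most like each member across the 9 testes were sought among 354 genes that are no members and had an SD of at least 1 there, and the 3 with the highest r are named. For HORMAD1 these were the RNA helicase DDX39A (r = 0.989), the synaptonemal complex immunophilin FKBP6 (r = 0.988) and CEP85 (r = 0.988). ZPBP had MT1A (r = 0.990), FKBP6 (r = 0.989) and CEP85 (r = 0.987), and PHF7 had DDX39A (r = 0.992), the testicular RNA helicase DDX25 (r = 0.990) and CEP85 (r = 0.989). LDHC had DDX25 (r = 0.994), MT1A (r = 0.986) and LRRC34 (r = 0.984). MT1A was read from a probeset type that can detect related transcripts.

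CRISP2, SPA17 and ADAM2 shared CCDC30, at r = 0.990, 0.992 and 0.994, and ACRBP, at r = 0.987, 0.998 and 0.991. The remaining gene was IZUMO4, of a family of sperm proteins, for CRISP2 (r = 0.985), the phosphorylase kinase subunit PHKG2 for SPA17 (r = 0.990) and PEBP4 for ADAM2 (r = 0.995). For PRM1 these were protamine 2, PRM2 (r = 0.999), the tail fibre gene ODF1 (r = 0.999) and EFHD1 (r = 0.998). No gene named for HORMAD1, ZPBP or PHF7 was also named for CRISP2, SPA17 or ADAM2, and those named for PRM1 were named for no other member. Each r is over 9 testes and mostly reflects where LWM02, YLM19 and YLM20 stand against the rest.

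Transcripts of genes listed for somatic cells varied among the testes as well, and whether the cells themselves differed was not measured. AMH, the anti-Müllerian hormone of immature Sertoli cells, was 11.05 in DUM12, 9.57 in DUM15, 9.58 in IBM23, 10.49 in IBM24, 7.07 in LWM02, 9.10 in LWM04, 9.33 in YLM18, 5.07 in YLM19 and 7.27 in YLM20. Of the 12 measured Sertoli cell genes, 5 had their lowest values in LWM02, YLM19 and YLM20, the testes with PRM1. These were AMH, INHA, GATA4, SOX9 and CITED1. The tight junction gene CLDN11 ran the other way, at 13.64, 13.58 and 13.57 in these testes and at most 13.48 in the others, and the transcription factor DMRT1 was highest in LWM02, at 11.02. Of the 10 Leydig cell genes 2 were lowest in these testes, HSD3B1 and NR5A1, and 0 were highest there. The share of all probesets with either order was not counted, so these counts do not set the listed genes apart. The mean of the Sertoli cell genes was between 6.95 and 7.86 in the 9 testes, with 8 or 9 genes above 5 in each, and that of the Leydig cell genes was between 9.38 and 11.05, with 9 above 5 in each. No gene of the epididymis list, 7 measured, exceeded 5 in any testis. The part of Sertoli cells and Leydig cells in the values of the members was not tested.

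Outside the testes, 7 of the 8 genes were near background in all non-gonadal tissues once the backfat of YLM19 was set apart. Over the other 63 non-gonadal arrays, LDHC lay between 2.14 and 2.31, PHF7 between 1.96 and 2.39, ADAM2 between 2.12 and 2.41 and CRISP2 between 2.55 and 2.90. PRM1 lay between 2.28 and 3.10, ZPBP between 2.06 and 3.42 and HORMAD1 between 2.70 and 4.21. The highest of these arrays were 1 hypothalamus for PRM1 (YLM20), 1 adenohypophysis for ZPBP (DUM12) and 1 backfat for HORMAD1 (IBF25), each below the level counted as expression. SPA17 differed from the rest, between 2.85 and 5.70 with a median of 4.32, and was above 5 in 6 of the 63 arrays.

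**Figure D3:**
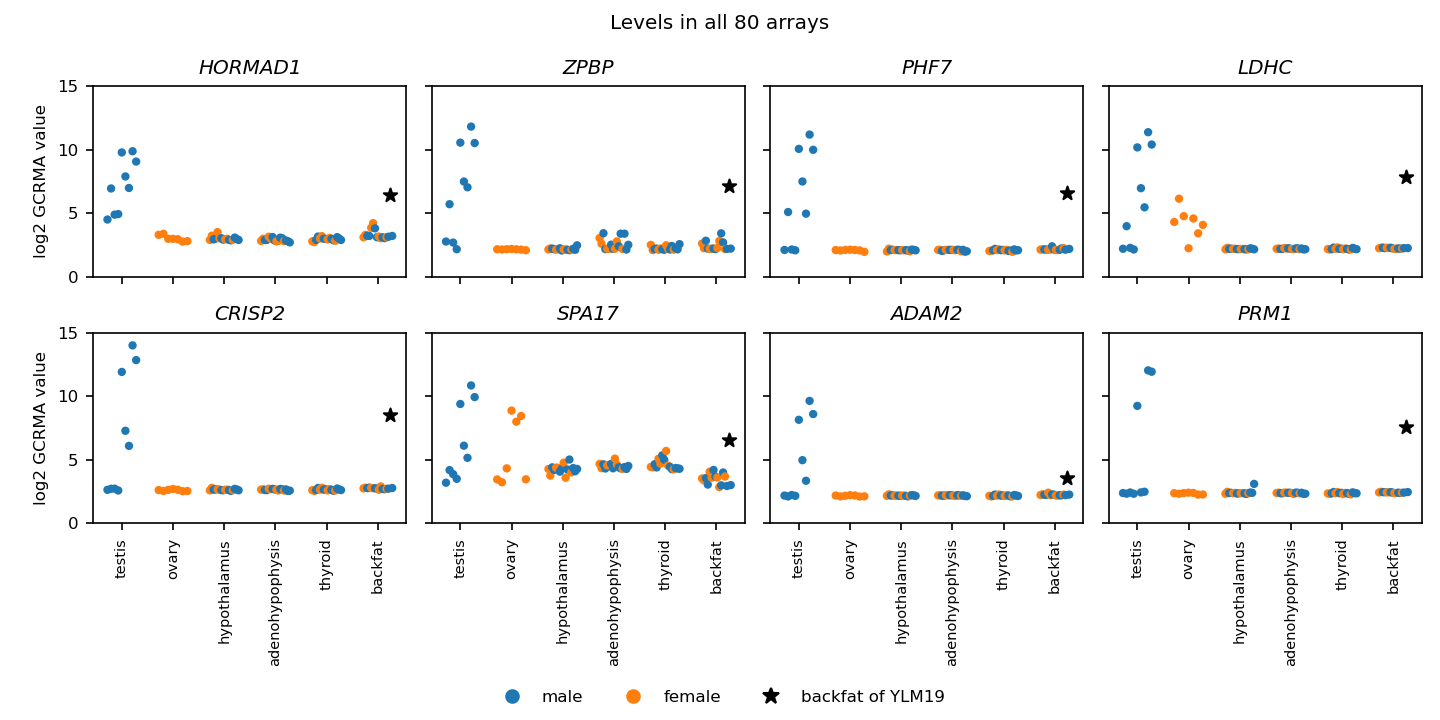
Log2 value of each gene in all 80 arrays by tissue, in males and females, with the backfat of YLM19 as a star. Values leave background in testes, for LDHC and SPA17 also in some of the ovaries, and the star lies above the other backfat arrays for all 8 genes, lowest for ADAM2 at 3.57.

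Between the sexes outside the gonads, 0 of the 9 member probesets differed, tested on the mean of 4 non-gonadal arrays of each animal with breed in the model. Over all probesets 0.0375% were higher and 0.0667% lower in males. None of the members had an unadjusted p under 0.05. Genes chosen as low outside the testes had little room to differ there, so a count of 0 says little about them. Differences of males minus females ranged from 0.00 to 0.19 over the 9 probesets, and the median over the 8 genes was 0.09 against 0.00 over all probesets. Without the backfat of YLM19 the values of HORMAD1, CRISP2, SPA17 and ADAM2 were below 0 and the highest was that of ZPBP, at 0.10 (SE 0.08). For a sex difference that varied among tissues the count was also 0 (0 of 9 called, 0 with an unadjusted p under 0.05, beside 0.338% of all probesets called in limma). For breed outside the gonads it was 0 as well (0 of 9 called, 0 with an unadjusted p under 0.05, beside 1.18% of all probesets called in limma).

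Among the 4 non-gonadal tissues 4 of the 9 member probesets differed, where 91.9% of all probesets did. The background is so high that the count says little about these genes. SPA17 had the clearest difference (adjusted p = 2.1e-05 from limma over the 64 arrays, and 3.5e-13 without the backfat of YLM19). It was 4.51 ± 0.21 in adenohypophysis, 4.64 ± 0.43 in thyroid gland and 4.26 ± 0.34 in hypothalamus (SD, n = 16 each). In backfat without YLM19 it was 3.48 ± 0.43 (SD, n = 15). Backfat was thus the tissue with the least SPA17, and adenohypophysis and thyroid gland overlapped. HORMAD1 was called as well (adjusted p = 0.00135 from limma over the 64 arrays, and 1.1e-06 without the backfat of YLM19). Its mean was 3.30 in the 15 backfat arrays without YLM19 and from 2.91 to 3.0 in the other tissues. All of these were below the level counted as expression. ADAM2 and the dimmer CRISP2 probeset were called at background levels, with adjusted p of 0.0499 and 0.00432 from limma. Without the backfat of YLM19, 8 of 9 were called and only PRM1 was not (adjusted p = 0.274 from limma). Over all probesets 21946 of 23999 were called in that setting, so this count too says little about these genes.

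In the backfat of YLM19 all 8 genes were higher than in the other 15 backfat arrays, and all but ADAM2 were above 5. CRISP2 was 8.55, LDHC 7.85, PRM1 7.55, ZPBP 7.10, SPA17 6.59, PHF7 6.55, HORMAD1 6.46 and ADAM2 3.57. In the other 15 backfat arrays the highest values were 2.90 for CRISP2, 2.28 for LDHC, 2.48 for PRM1, 3.41 for ZPBP, 4.20 for SPA17, 2.39 for PHF7, 4.21 for HORMAD1 and 2.41 for ADAM2. The distance above the next array was thus between 1.15 for ADAM2 and 5.65 for CRISP2. The dimmer CRISP2 probeset did not follow, at 2.0 against 2.02 in the next array.

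**Figure D4:**
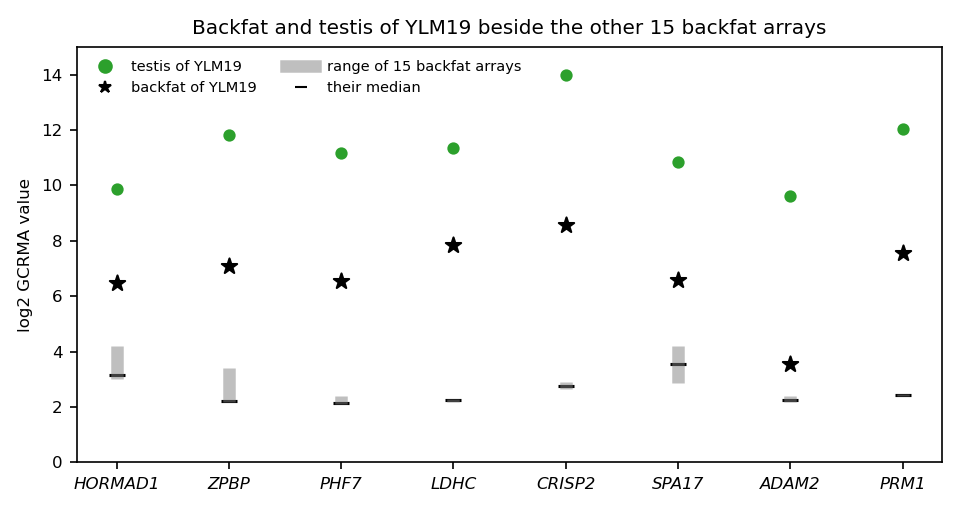
Log2 value of the 8 genes in the backfat (star) and testis (green point) of YLM19, with the range and median of the other 15 backfat arrays in grey and black. Each star lies above the grey range and below the testis of the same animal.

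YLM19 was also the boar with the highest testis values of all 8 genes. Its testis exceeded its backfat by 3.4 for HORMAD1, 3.52 for LDHC, 4.26 for SPA17, 4.48 for PRM1, 4.63 for PHF7, 4.7 for ZPBP, 5.45 for CRISP2 and 6.07 for ADAM2. In the other tissues of this animal the genes were at the level of other pigs: PRM1, for example, was 2.40 in hypothalamus, 2.32 in adenohypophysis and 2.38 in thyroid gland.

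Other transcripts of this backfat array stood apart too. All 11 measured striated muscle genes were highest there, with a mean of 13.88 against 2.52 to 8.59 in the other 15 arrays. Their mean in testes was between 2.74 and 3.18, though not all were at background in testes. MYOZ1 was 7.06 in the testis of YLM19, 5.70 in YLM20 and 4.50 in LWM02, and at most 2.89 in the others. CKM was between 3.96 and 7.48 in the testes, and the other muscle genes were below 5. Of the listed genes of spermatids and sperm, 4 of 11 were more than 1 above the next backfat array, and of those of meiosis 1 of 6, ACRBP being 6.29 against 3.57 and PGK2 3.43 against 2.11. Among Sertoli cell genes 2 of 12 were so, CLDN11 at 9.33 against 7.55 and DMRT1 at 5.68 against 3.32, and among Leydig cell genes 1 of 10, CYP17A1 at 4.08 against 2.33. AMH was 1.72 in this array, at background, and 5.07 in the testis of the same boar, and 0 of 7 epididymis genes were highest there. The source of these transcripts was not tested.

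LDHC and SPA17 were above the highest non-gonadal array in some of the 7 ovaries, LDHC in 6 and SPA17 in 3, and the 6 other genes stayed at background. HORMAD1, ZPBP, PHF7, CRISP2, ADAM2 and PRM1 were at most 3.38 in any ovary. Over all probesets, 22.1% were higher and 27.6% lower in ovary than in the mean of the 4 other tissues, and of the 9 member probesets 3 were called, 2 of them higher. The median difference over the 8 genes was -0.04, as over all probesets. Low levels in the other tissues were part of the choice of the genes, so these calls are not independent of it.

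LDHC was 4.30 in DUF13, 6.14 in DUF14, 4.76 in IBF22, 2.23 in IBF25, 4.58 in LWF05, 3.41 in LWF06 and 4.08 in YLF21. The highest non-gonadal array was 2.31, so that 6 of 7 ovaries were above it and IBF25 was not. The ovary exceeded the mean of the other tissues by 2.01 (SE 0.23, adjusted p = 1.6e-08 from limma), and by 2.35 without IBF25. The highest ovary, DUF14, lay above the testes of YLM18, DUM15, DUM12 and both Iberian boars and below those of LWM04, LWM02, YLM20 and YLM19.

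SPA17 was 3.46 in DUF13, 3.23 in DUF14, 4.33 in IBF22, 8.87 in IBF25, 8.0 in LWF05, 8.45 in LWF06 and 3.47 in YLF21. The ovaries fell apart into 3 with values between those of the testes LWM04 and LWM02 and 4 within the range of the other tissues. The ovary exceeded the mean of the other tissues by 1.43 (SE 0.47, adjusted p = 0.0131 from limma). This difference was 0.91 without IBF25 (adjusted p = 0.108 from limma), 1.13 without LWF05 (adjusted p = 0.0768) and 0.91 without LWF06 (adjusted p = 0.118), so the call rests on each of these ovaries. CRISP2 was lower by a difference of -0.08 (adjusted p = 0.0289 from limma), at background on both sides, and this call was lost without DUF14, IBF22, LWF06 or YLF21 (adjusted p from 0.0667 to 0.0918).

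**Figure D5:**
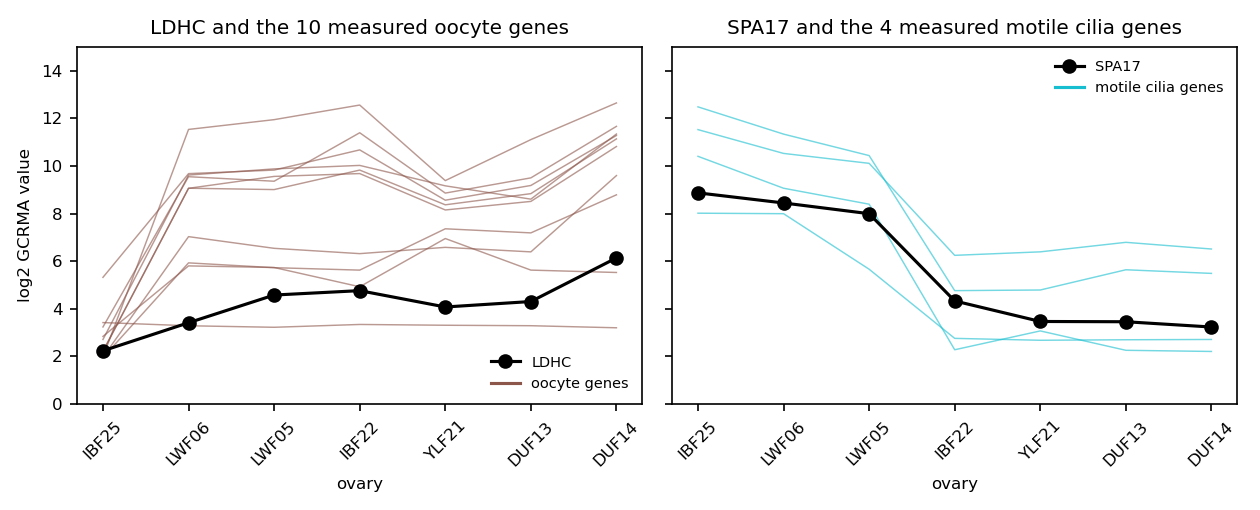
Log2 values in the 7 ovaries, ordered by SPA17, of LDHC with the 10 measured oocyte genes (left) and of SPA17 with the 4 measured motile cilia genes (right). LDHC and 9 of the 10 oocyte genes are lowest in IBF25, and all 4 cilia genes are higher in IBF25, LWF06 and LWF05 than in the other ovaries.

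Markers of other cells moved with both genes. Of the 10 oocyte genes measured 9 were lowest in IBF25, where LDHC was lowest too, and their mean was 2.78 there and between 7.67 and 9.6 in the other ovaries. DUF14 had the highest mean and the most LDHC. All 4 measured motile cilia genes were higher in IBF25, LWF05 and LWF06 than in every other ovary, with means of 10.61, 8.65 and 9.73 against 4.01 to 4.35, and these were the 3 ovaries with SPA17. In the testes these 4 genes did not move alike. ROPN1L, which carries a docking domain of the same type as SPA17, was 8.84 in LWM02, 10.98 in YLM19 and 9.22 in YLM20 against 5.15 to 6.15 in the others, and TEKT1 was 3.58, 7.08 and 4.25 against at most 2.76. TPPP3 was lowest in these testes, at 4.43, 4.76 and 4.44 against 4.83 to 6.0, and CAPSL was at background in all, at most 3.10. How many of all probesets showed the same orders in the ovaries was not counted. The part of oocytes and of ciliated cells in the ovarian values of LDHC and SPA17 was not tested.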

How the data were processed

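Total RNA was hybridised to Affymetrix porcine arrays. The authors normalized all 80 arrays with GCRMA, and their log2 values were used as deposited. GCOS is named in the submitters' notes, and its version is not given in the sources used here. Of 24123 probesets 124 controls were left out; of the rest the annotation gives 1 symbol to 10069, several to 198 (1 of them with CRISP2, left out by the rule) and none to 13732.

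The members, lists and tests were chosen with earlier results of these data known. Other genes named are the 3 most correlated with each member across testes, the 4 highest in testes of each germ cell list, and EIF1AY. Sertoli, Leydig, cilia and striated muscle genes were chosen after their values were seen. The probeset with the highest mean stands for a gene. The germ cell lists held 20, 44 and 81 symbols, of which 4, 6 and 11 were measured. Fits used limma 3.58.1 in R 4.3.3 over all 23999 probesets, with eBayes, Benjamini-Hochberg adjustment at 0.05 and breed or sex as covariates, and were tested on simulated data. A fit of breed over the 9 testes is not read for the members, whose testis values chose them. Sex and breed used animal means of the 4 non-gonadal tissues, tissue and sex by tissue 64 arrays, ovary 35 female arrays, and listed genes 16 gonads.

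Animal numbers pair the tissues of one pig: deviations of its arrays had a mean r of 0.33 over 96 pairs, against -0.04 over 684 pairs of different animals. Alternatives were a filter on dim probesets (over 5 in at least 5 arrays), aligned medians, the animal as replicate block, and leaving out thyroid arrays, the backfat of YLM19 or each animal. The number of columns of other samples was 0.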

Additional observations from a re-analysis of the deposited data

Results flagged for a closer look

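Each of the 8 genes was examined in 10 groups of arrays of 1 tissue and sex for a sample far from the others by Dixon's ratio, 80 groups in all, of which chance marks about 1 in 20. In 20 groups a sample stood apart. In 8 of these it was the backfat of YLM19: CRISP2 at 8.55, LDHC at 7.85, PRM1 at 7.55, ZPBP at 7.10, SPA17 at 6.59, PHF7 at 6.55, HORMAD1 at 6.46 and ADAM2 at 3.57.

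Most of the others were at background and differed by little. In the hypothalamus of DUF14, ADAM2 was 2.28, CRISP2 2.80, LDHC 2.27, PRM1 2.48 and ZPBP 2.22, the highest of 7 females in each, and the next values were 2.19, 2.67, 2.19, 2.39 and 2.15. In YLF21, PHF7 was 1.99 in adenohypophysis and 1.95 in ovary, the lowest of 7, and 2.24 in backfat, the highest. ADAM2 was 2.41 in the backfat of IBF22. In the hypothalamus of YLM20, PRM1 was 3.10 against 2.43 in the next male and ZPBP 2.47 against 2.23. In the hypothalamus of LWM04, SPA17 was 5.02 against 4.40 in the next male.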

How the results depend on the processing

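Counts of called member probesets were 0 for sex, sex by tissue and breed outside the gonads under all alternatives run, and 0 whichever animal was left out. Between non-gonadal tissues 4 were called, 2 without dim probesets (which left 6 of 9 probesets) and 8 without the backfat of YLM19. Over all probesets the counts were 22053 of 23999, 14962 of 15467 and 21946 of 23999. Leaving out an animal gave from 3 to 8 member probesets, 8 being the value without YLM19. For ovary against other tissues 3 were called and 8 with array medians aligned, where the count over all probesets rose from 11913 to 17454 of 23999. Leaving out an animal gave from 1 to 3, 1 being the value without LWF06. With the animal as replicate block, a paired fit, the counts were 4 for tissue, 0 for sex by tissue and 3 for ovary, and no call of a named gene changed. Of the listed genes 3 were higher in testes than in ovaries, and 2 or 3 when an animal was left out. ADAM2 lost its call between tissues without most single animals, the highest adjusted p being 0.0921 without IBF22, and CRISP2 its call in ovary without dim probesets (adjusted p = 0.178) and without 4 of the 7 females. No called difference of the 8 genes changed sign, whereas 4 uncalled sex differences fell below 0 without the backfat of YLM19.

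Over 8 genes and 9 testes 38 values were above 5, 44 above 4, 34 above 6, 42 above the gene's lowest value plus 2, and 34 with the other CRISP2 probeset. Above the highest non-gonadal array, a rule chosen after seeing the data, they were 44. Outside the testes and the backfat of YLM19, 10 values were above 5, 59 above 4 and 4 above 6, of which SPA17 made 9, 53 and 3.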
